A study of Mus musculus with 40 samples.

Results

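The values below describe 10 genes that are widely used as marks of reactive astrocytes, Gfap, Vim, Lcn2, Timp1, Ptx3, Tgm1, Serpina3n, Osmr, C3 and S100a6, across 40 RNA-seq libraries of mouse striatum. The genes were taken by symbol from a count table of 24060 gene rows, and all 10 were in it. They were selected by name, with no threshold on a value, while CPM, IP over input and KO over WT in these libraries were already known, so their own differences, and the calls they received in fits across all genes, are given as descriptions and not as evidence.

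Astrocytes respond to injury, infection and inflammation by enlarging and by changing which genes they transcribe, a state called reactive. The rise of the intermediate filament protein GFAP is its classical sign, usually together with vimentin. Reactive astrocytes also secrete acute-phase and complement proteins, and they receive cytokines of the interleukin-6 family, among them oncostatin M, through receptors that signal by STAT3. Which of these genes rise depends on the insult, and several of them are also transcribed by microglia, infiltrating leukocytes, endothelial cells or ependyma.

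The study asked which proteins astrocytes and neurons of the striatum hold, mainly by biotin labelling of nearby proteins and mass spectrometry. It also asked how loss of SAPAP3 (gene Dlgap3), a postsynaptic scaffold protein whose knockout mice groom compulsively, bears on both cell types. RNA-seq accompanied the protein data, and the study reported that RNA levels were only weakly related to protein levels. Its RiboTag mice had received in the dorsal striatum a virus for the ribosomal protein Rpl22 with an HA tag, under either the gfaABC1D promoter (a short GFAP promoter, for astrocytes) or the hSyn1 promoter (for neurons). Tagged ribosomes with their RNA were then pulled down (IP), and part of the same lysate served as the input, the RNA of all striatal cells. The 40 libraries formed 10 groups of 4. The Control cohort gave Control input and Control IP libraries from C57/BL6NTac mice and, by its markers, was an astrocyte RiboTag cohort. The Syn cohort, from mice of the hSyn1 virus, gave Syn input and Syn IP libraries. The SAPAP3 cohort gave input and IP libraries of wild-type C57/BL6J mice (WT) and of C57/BL6J-Dlgap3 KO mice (KO). Both genotypes carried a RiboTag whose promoter the labels do not name. According to the methods, virus was injected in young adults of the C57/BL6NTac cohorts and in mice some months older for the SAPAP3 cohort. Bulk WT and Bulk KO libraries were labelled as bulk and C57/BL6NTac, and 1 animal name was given to a library of each of these genotypes. All input and IP libraries, those of the WT mice included, came from striata that had received virus. Neither a virus nor an age is given for the bulk mice in the sources used here.

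Library totals ran from 23438112 to 84109800 counts. Dlgap3 was lower in KO than in WT libraries without overlap in inputs (166 to 200 against 376 to 514 CPM, counts scaled to the library total), in IP (49.8 to 87.2 against 154 to 212) and in bulk (144 to 161 against 232 to 385), so reads of the gene persisted in the knockouts. The 10 astrocyte markers checked (such as Aqp4 and Slc1a3, but none of the genes described here) were higher in IP than in input in the Control cohort and in both genotypes of the SAPAP3 cohort, 10 of 10 each time, and 0 of 10 were higher in Syn IP. The 10 microglial markers were lower in the IP of all these cohorts, 10 of 10. Of the ependymal and choroid markers, 6 of 6 tested were higher in Control IP, 6 of 7 in WT IP and 6 of 7 in KO IP, with summed levels of 82.4 to 182 CPM in these IP libraries against 27.5 to 42.9 CPM in their inputs. Of the 10 oligodendrocyte markers, 4 were higher in WT IP and 4 in KO IP, with sums of 7098 to 11145 CPM against 6184 to 7182 CPM in their inputs. In Control IP 0 were higher and 1 was lower, and in Syn IP 10 of 10 were lower. The part of these other cell types in the values below was not tested. Gapdh stood at 608 to 995 CPM in the 8 libraries of the Control cohort and at 1.91 to 5.94 CPM in the other 32. What made this difference was not tested, and levels are compared mainly within a cohort. Xist, transcribed from the inactive X chromosome of females, was at 0 to 1 counts in the 8 Control libraries and at 1843 to 14313 counts in the 8 Syn libraries, where 4 Y-linked genes had 0 counts, so sex and virus cannot be told apart between these cohorts.

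Promoter sequences of 10 of the 10 genes were matched in RefSeq (build GRCm38.p6), as 11 windows of 300 bases, 250 before and 50 from a transcription start onward, since Tgm1 has 2 starts. Both strands were searched for a STAT motif (TTCNNNGAA), an AP-1 motif (TGANTCA) and an NF-kB motif (GGGA and TTTCC around any base), and no matches overlapped. They occurred in 8.3%, 7.81% and 0.411% of the 32851 windows of all genes. Of the 10 genes, Gfap and Tgm1 held the STAT letters, Osmr held the AP-1 letters, none held the NF-kB letters, and the other 7 held none of these motifs. The 3 windows that hold a match are shown. Capitals mark the matches, which are descriptions of the letters and not of binding. The window of Gfap is chr11:102897151-102897450 on the minus strand, with the match beginning 2 bases before the start. That of Tgm1 is chr14:55713443-55713742 on the minus strand, with matches 173 and 64 bases before the start, and that of Osmr is chr15:6874264-6874563 on the minus strand, with the match beginning at base 4 of the transcript.
Gfap: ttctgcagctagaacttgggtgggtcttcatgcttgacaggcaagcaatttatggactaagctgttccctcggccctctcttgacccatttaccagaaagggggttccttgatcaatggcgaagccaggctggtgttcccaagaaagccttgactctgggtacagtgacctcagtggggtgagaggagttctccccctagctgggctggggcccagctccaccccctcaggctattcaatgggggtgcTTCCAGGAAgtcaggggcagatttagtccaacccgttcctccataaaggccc
Tgm1: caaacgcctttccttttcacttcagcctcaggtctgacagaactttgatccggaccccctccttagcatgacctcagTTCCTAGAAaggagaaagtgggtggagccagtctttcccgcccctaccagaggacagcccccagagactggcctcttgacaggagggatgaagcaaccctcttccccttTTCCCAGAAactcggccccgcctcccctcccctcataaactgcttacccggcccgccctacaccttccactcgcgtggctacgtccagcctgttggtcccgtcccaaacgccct
Osmr: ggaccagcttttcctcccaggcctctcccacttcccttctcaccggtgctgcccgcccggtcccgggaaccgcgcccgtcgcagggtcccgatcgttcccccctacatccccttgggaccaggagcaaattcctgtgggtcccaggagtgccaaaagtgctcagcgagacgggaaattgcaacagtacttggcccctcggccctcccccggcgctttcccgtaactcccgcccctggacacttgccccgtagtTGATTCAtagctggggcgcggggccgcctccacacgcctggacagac

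Gfap (chr11:102887336-102897200, minus strand, 10 exons in GRCm38.p6) encodes the main intermediate filament protein of astrocytes. Its levels were 242.6 ± 51.9 CPM in Control input (SD, n = 4, as for all such values), 411.7 ± 115 CPM in WT input and 394.0 ± 29.0 CPM in KO input, and 1978 ± 445, 3090 ± 822 and 3663 ± 463 CPM in the corresponding IP libraries. Corrected for transcript length and depth (FPKM), Gfap was the most abundant of the 10 in every group, with 484 ± 109 FPKM in Control IP, 756 ± 201 in WT IP, 897 ± 113 in KO IP and 24.5 ± 4.55 in Bulk WT. Vim came next in the IP groups, at 131 ± 42.7, 185 ± 55.6 and 211 ± 49.1 FPKM. S100a6 and Serpina3n followed, at 54.3 to 79.1 and 123 to 370.5 mean CPM, which per length was 75.6 and 57.1 FPKM in Control IP. The other 6 genes ranged from 2.56 FPKM (Ptx3) to 6.76 FPKM (Tgm1) in Control IP and from 2.78 FPKM (Ptx3) to 17.7 FPKM (C3) in WT IP. In Bulk WT these 6 ranged from 0.0159 FPKM (Tgm1) to 0.452 FPKM (Osmr). The 3 highest mean CPM of a gene were those of KO, WT and Control IP for 9 of the 10. KO and WT IP overlapped for all 10, and Control IP overlapped with WT IP for 8, the exceptions being Serpina3n (66.8 to 205 against 219 to 501 CPM) and C3 (16.2 to 47.6 against 51.0 to 140 CPM). Control IP did not overlap with the next lower group for 7 of the 10, and did so for Tgm1, Serpina3n and C3.

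**Figure D1:**
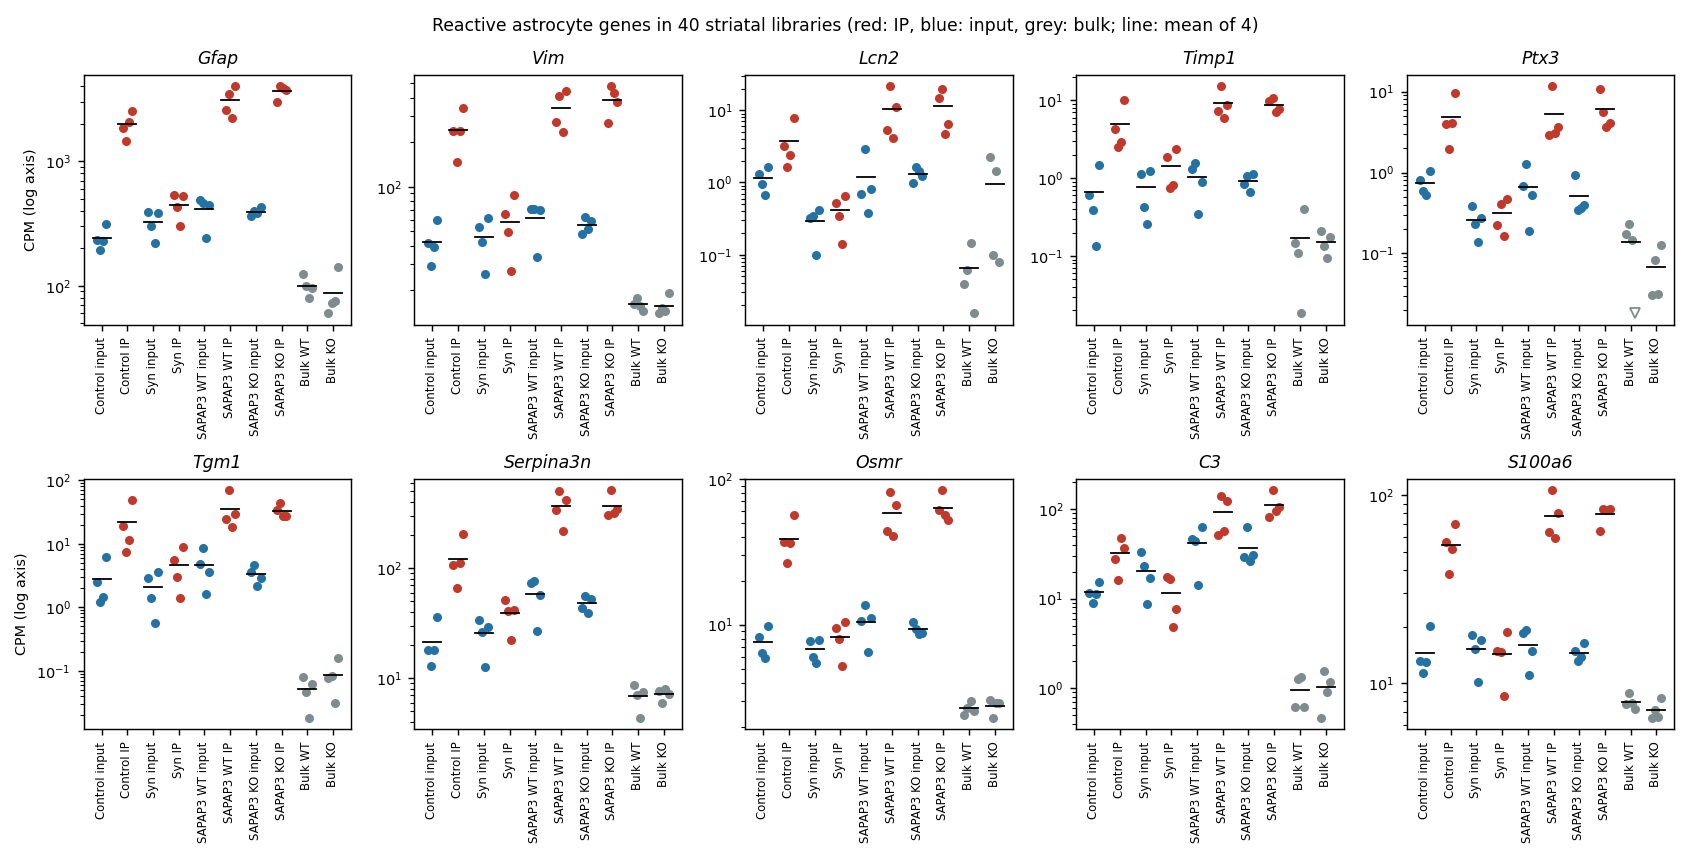
Level of each of the 10 genes (CPM, log axis) in the 10 groups, with points for the 4 libraries of a group and a line for their mean. The open triangle is the Bulk WT library with 0 Ptx3 counts. In 9 of the 10 genes the Control, WT and KO IP groups hold the 3 highest means, and C3 differs in that its WT and KO inputs lie above Control IP.

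The first comparison asked which genes were enriched on tagged ribosomes. All 10 genes were higher in IP than in input in the Control cohort and in both genotypes of the SAPAP3 cohort, by log2 fold changes of 1.67 to 3.25 in Control, 1.31 to 3.38 in WT and 1.79 to 3.77 in KO. Each of the 3 comparisons called 10 of 10 genes, called meaning an adjusted p under 0.05 and a log2 change above 1 in size (edgeR's quasi-likelihood test, Benjamini-Hochberg adjustment). Among all genes 13.4%, 10.9% and 12.3% were called higher, and the IP libraries lay above the inputs without overlap for 10, 9 and 10 of the 10 genes (25.7%, 21.7% and 23.2% of all genes), but nothing is read from these shares because this contrast chose the genes. In the Syn cohort 0 of the 10 were called, against 0.42% of all genes called higher and 15.8% lower, and all 10 overlapped (16.7% of all genes were higher without overlap). There 3 genes lay near the call: Timp1 (1.12 on the log2 scale) was called higher by DESeq2, with the replicate number as a block and without Syn input 4, Syn IP 2 or Syn IP 3 (0.80 to 1.44 over the libraries left out in turn), Tgm1 with the block and without Syn input 4 or Syn IP 3 (0.85 to 1.73), and Serpina3n without Syn IP 3 (1.01).

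Gfap stood at 232, 194, 228 and 316 CPM in the 4 Control input libraries and at 1868, 1456, 2060.4 and 2528 CPM in the Control IP libraries, in the order of their numbers. In WT it stood at 491, 466, 242 and 448 CPM in input and at 2609.8, 3479, 2229 and 4041 CPM in IP, and in KO at 363, 396, 384 and 433 CPM in input and 2996, 4037, 3901 and 3719.8 CPM in IP. The lowest IP library was above the highest input library in each cohort, by log2 changes of 3.25 ± 0.18 (SE) in Control, 3.08 ± 0.26 in WT and 3.42 ± 0.12 in KO. In the Syn cohort Gfap was at 394, 301, 221 and 385 CPM in input and at 535, 427, 304 and 526 CPM in IP, where the groups overlapped and the log2 change was 0.66 ± 0.20. Taken by number, though, its IP over input ratio was above 1 in all 4 Syn pairs, within a narrow 1.36 to 1.42, against 7.51 to 9.03 in Control, 5.32 to 9.22 in WT and 8.24 to 10.2 in KO.

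Vim (chr2:13574311-13582826, plus strand) encodes vimentin, the filament protein of immature and reactive astrocytes and of vascular cells. It followed Gfap at a lower level, with 41.6, 29.0, 38.9 and 59.9 CPM in Control input and 239.7, 146, 238 and 338 CPM in Control IP. Its log2 changes were 2.73 ± 0.25 in Control, 2.65 ± 0.28 in WT, 3.03 ± 0.17 in KO and 0.53 ± 0.34 in Syn. IP and input did not overlap in the astrocyte and SAPAP3 cohorts and overlapped in the Syn cohort (25.7 to 61.1 CPM in input, 26.8 to 88.5 CPM in IP). The 6 further filament genes examined had smaller changes. Lmna (lamin A/C, of the nuclear envelope) was called higher in Control IP (1.02 ± 0.08, adjusted p = 4.3e-07) and was at 0.76 and 0.77 in WT and KO IP, under the limit of 1. Nes (nestin) was called higher in KO IP (1.34 ± 0.11, adjusted p = 1.8e-06), reached 0.98 in both Control and WT IP and was called lower in Syn IP (-1.08 ± 0.18, adjusted p = 0.00031), and Synm (synemin, a partner of both filaments) had log2 changes of 0.58, 0.56 and 0.59 in Control, WT and KO IP, all under the limit of 1. Plec (plectin, a filament linker) differed by 0.23 or less in the same comparisons.

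Among the secreted proteins, Serpina3n (chr12:104406646-104414334, plus strand), a serine protease inhibitor of the acute phase, was the most abundant. It was at 18.3, 12.9, 18.1 and 36.0 CPM in Control input and at 108, 66.8, 112 and 205 CPM in Control IP. In WT it was at 72.9, 76.4, 27.0 and 56.9 CPM in input and at 339, 501, 219 and 418 CPM in IP, and in KO at 43.2, 56.5, 39.6 and 53.0 CPM against 305, 513, 318 and 346 CPM. No IP library fell into the range of its inputs, and the log2 changes were 2.76 ± 0.36, 2.84 ± 0.34 and 3.15 ± 0.18. Of its neighbours in the same gene cluster, Serpina3g was lower in IP in Control (-3.60 ± 0.25, adjusted p = 1.2e-07), WT (-3.31 ± 0.47, adjusted p = 0.00019) and KO (-2.67 ± 0.37, adjusted p = 7.1e-05), whereas Serpina3i was higher in Control (1.86 ± 0.75, adjusted p = 0.039), WT (2.55 ± 0.38) and KO (2.86 ± 0.38). No transcript or genome locus with at least 95% identity over 50% of the length was found for any of the 10 genes.

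Lcn2 (lipocalin-2, which binds bacterial siderophores, chr2:32384637-32387739), Timp1 (an inhibitor of matrix metalloproteinases, chrX:20870166-20874737) and Ptx3 (a pentraxin of innate immunity, chr3:66219887-66225806) were scarce in input and higher on tagged ribosomes. Lcn2 was at 1.33, 0.951, 0.666 and 1.62 CPM in Control input and at 3.24, 1.65, 2.40 and 7.92 CPM in Control IP, and at 0.683, 2.87, 0.377 and 0.802 CPM in WT input against 5.35, 21.7, 4.09 and 11.1 CPM in WT IP. The lowest IP library was only just above the highest input library in Control, and the log2 changes were 1.97 ± 0.48 there, 3.33 ± 0.69 in WT and 3.30 ± 0.45 in KO. Timp1 changed by 3.19 ± 0.61, 3.38 ± 0.42 and 3.47 ± 0.20 and Ptx3 by 2.95 ± 0.48, 3.18 ± 0.62 and 3.77 ± 0.44. Among all 15587 genes tested in WT, Timp1 had the largest IP over input change, Lcn2 ranked 2 and Ptx3 ranked 4. In Control, Timp1 ranked 17, Lcn2 662 and Ptx3 41 of 15476, and in KO they ranked 6, 9 and 2 of 15583. The WT inputs held only 6 to 79 counts of these genes. Nothing is read from the ranks, because this contrast was known when the genes were chosen. Other genes of the metalloproteinase system moved too: Timp3 (2.51 ± 0.05, adjusted p = 3.6e-12) and Timp4 (2.05 ± 0.05, adjusted p = 1.4e-11) were higher in Control IP, as were 4 of 6 such genes in the Control, WT and KO IP, while Mmp9, a known partner of TIMP-1 and of lipocalin-2, was not called in Control IP (-0.12 ± 0.22, adjusted p = 0.65).

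C3 (chr17:57203967-57228136, minus strand, 42 exons), the central complement component, was the gene of the 10 with the smallest enrichment. It was at 11.7, 9.06, 11.3 and 15.3 CPM in Control input and at 27.8, 16.2, 47.6 and 37.0 CPM in Control IP, without overlap. In WT its input (46.0, 43.8, 14.3 and 63.9 CPM) and IP (51.0, 140, 56.3 and 122 CPM) overlapped, and the call was lost on leaving out WT input 2, WT IP 2 or WT IP 4, with log2 changes of 1.03 to 1.59 over the 8 libraries left out in turn. In the Syn cohort C3 went the other way, with 33.1, 23.2, 8.61 and 17.2 CPM in input and 17.6, 16.6, 4.86 and 7.65 CPM in IP. All 4 Syn pairs were below 1 (0.446 to 0.716), and the log2 change of -0.61 ± 0.45 was not called. Of the 10 further complement genes tested, C4b (2.56 ± 0.18, adjusted p = 1.1e-07) and Serping1, the C1 inhibitor (2.53 ± 0.27, adjusted p = 4.5e-06), were higher in Control IP and 7 were lower, among them C1qc, a C1q chain made by microglia (-5.93 ± 0.12, adjusted p = 7.3e-12), and the C3a receptor C3ar1 (-4.98 ± 0.25, adjusted p = 7.1e-09).

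Osmr (chr15:6813568-6874968, minus strand), the oncostatin M receptor subunit, was at 8.21, 6.38, 5.93 and 9.76 CPM in Control input and at 36.6, 26.3, 36.0 and 56.1 CPM in Control IP. It differed by 2.59 ± 0.23 in Control, 2.64 ± 0.27 in WT, 2.98 ± 0.15 in KO and 0.49 ± 0.20 in Syn. Il6st (gp130, the shared signalling subunit) was also higher in Control, WT and KO IP (1.51 ± 0.05, 1.25 ± 0.08 and 1.43 ± 0.09, adjusted p at most 1e-06), as was Stat3 (1.40 ± 0.09, 1.46 ± 0.21 and 1.70 ± 0.12, adjusted p at most 0.00023). The ligand Osm was lower in IP in WT (-2.91 ± 0.54, adjusted p = 0.001), in KO (-2.78 ± 0.50, adjusted p = 0.00047) and in Syn (-4.34 ± 0.44, adjusted p = 1.2e-05) and was too low for a test in Control. Receptor and ligand thus lay on opposite sides of the IP in the SAPAP3 cohort. The STAT3 feedback inhibitor Socs3 was called in KO IP (1.11 ± 0.29, adjusted p = 0.0053) and not in Control (0.29 ± 0.35) or WT IP (0.83 ± 0.44).

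Tgm1 (chr14:55700009-55713921, minus strand) encodes a transglutaminase, an enzyme that cross-links proteins, best known from the skin. It was at 2.53, 1.23, 1.47 and 6.11 CPM in Control input and at 19.0, 7.35, 11.3 and 49.9 CPM in Control IP, a change of 3.20 ± 0.65 on the log2 scale in which the fourth library of both groups was the highest. The change was 3.13 ± 0.54 in WT and 3.51 ± 0.23 in KO. In the Syn cohort Tgm1 had the largest difference of the 10 genes, 1.35 ± 0.59, with 2.90, 1.40, 0.569 and 3.60 CPM in input and 5.46, 3.03, 1.40 and 8.95 CPM in IP. The groups overlapped, yet all 4 pairs stood between 1.88 and 2.48. With the replicate number as a block Tgm1 (1.34 ± 0.10) and Timp1 (1.15 ± 0.17) were called higher in Syn IP, against 71 of 16198 genes called higher in that fit. S100a6 (chr3:90612894-90614414, plus strand), a small calcium-binding protein of astrocyte precursors and many dividing cells, changed by 2.14 ± 0.20 in Control, 2.46 ± 0.22 in WT and 2.65 ± 0.11 in KO, and by 0.11 ± 0.22 in Syn. Most of its relatives were higher as well: 6 of 7 tested S100 genes were higher in Control IP, 6 of 6 in WT and 7 of 7 in KO, including S100a11 (2.61 ± 0.52, adjusted p = 0.00069 in Control) and S100a1 (1.98 ± 0.05, adjusted p = 1.9e-11 in Control).

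**Figure D2:**
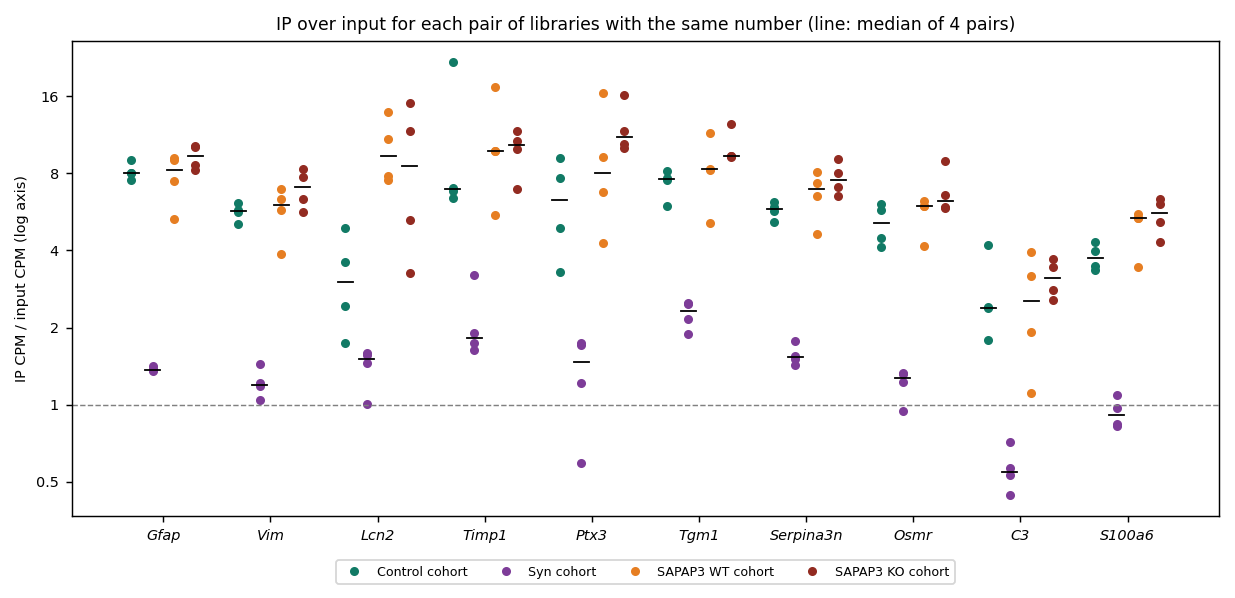
IP over input ratio of CPM (log axis, 1 marks no difference) for the 10 genes, with 1 point for each of the 4 number-matched pairs of a cohort. Pairs of the Control, WT and KO cohorts all lie above 1, and those of the Syn cohort lie around 1, from 0.446 for C3 to 3.22 for Timp1.

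Across the 10 genes the median IP over input ratio of a gene ran from 2.39 to 8.02 in Control, from 2.55 to 9.81 in WT and from 3.13 to 11.1 in KO. In the Syn cohort it ran from 0.548 to 2.31, with 6 of 10 genes above 1 in all 4 pairs and 1 gene, C3, below 1 in all. These ratios are of CPM by library totals, while the log2 changes were scaled otherwise, so counts near the line of 1 depend on the scaling. S100a6 in Syn, for example, had a ratio of mean CPM of 0.940 and a log2 change of 0.11. The median log2 change of the 10 in Syn IP was 0.60, beside 0.00 over all genes tested and -0.63 over the 10 astrocyte markers, of which 1 was called lower. The difference in IP over input between the Control and Syn cohorts, the interaction term of a fit over both, was called higher in Control (adjusted p under 0.05 alone) for 8 of the 10 genes, where 34.3% of all genes were. Nothing is read from this count, because IP over input in each cohort was known when the genes were chosen. The difference ranged from 1.30 ± 0.77 (Lcn2) to 2.59 ± 0.29 (Gfap) on the log2 scale. Lcn2 and Tgm1 (1.85 ± 0.98) were the ones not called, and both were called with the replicate block (1.19 ± 0.37 and 1.80 ± 0.14). The call for Timp1 (2.07 ± 0.89) was lost on leaving out Control 1, 2 or 3 or Syn 1, 2 or 4, with values of 1.89 to 2.25.

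Another 28 genes used as marks of reactive astrocytes were examined in the same fits, split by the literature into those shared between insults, those of inflammation and those of ischaemia. This list too was chosen with earlier results of these data known, so its counts are descriptions. Of these 28 genes, 16 were higher and 2 lower in Control IP, 15 higher and 3 lower of 27 tested in WT IP, and 19 higher and 3 lower of 27 tested in KO IP, with median log2 changes of 1.40, 1.21 and 1.55. Among all genes 13.4%, 10.9% and 12.3% were called higher. In Syn IP 0 of the 28 were higher and 6 were lower (27 tested), where 0.42% of all genes were called higher and 15.8% lower. The shared gene Cd44, a hyaluronan receptor, was among the highest in Control IP (2.94 ± 0.24, adjusted p = 4.1e-07), as were the inflammation gene Gbp2, an interferon-induced GTPase (2.86 ± 0.37, adjusted p = 2.2e-05), and the ischaemia gene Cd109 (2.89 ± 0.27, adjusted p = 1.6e-06). The genes that fell in all 4 IP comparisons were Srgn (-2.94 ± 0.29 in Control) and Cd14 (-3.74 ± 0.23 in Control), which microglia and leukocytes transcribe. Ptgs2 (cyclooxygenase-2) was called lower in WT (-1.03 ± 0.36, adjusted p = 0.03) and KO IP (-1.13 ± 0.14, adjusted p = 2.4e-05) and not in Control (0.92 ± 0.19, under the limit of 1). By list, 4 of 7 shared, 8 of 11 inflammation and 4 of 10 ischaemia genes were higher in Control IP. Their IP over input was higher in the Control than in the Syn cohort for 22 of 28 and lower for 2, with a median difference of 1.66 on the log2 scale, where 34.3% of all genes were called higher. In the same term 10 of 10 astrocyte, 10 of 10 oligodendrocyte and 6 of 7 ependymal and choroid markers were higher and 8 of 10 microglial markers were lower.

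**Figure D3:**
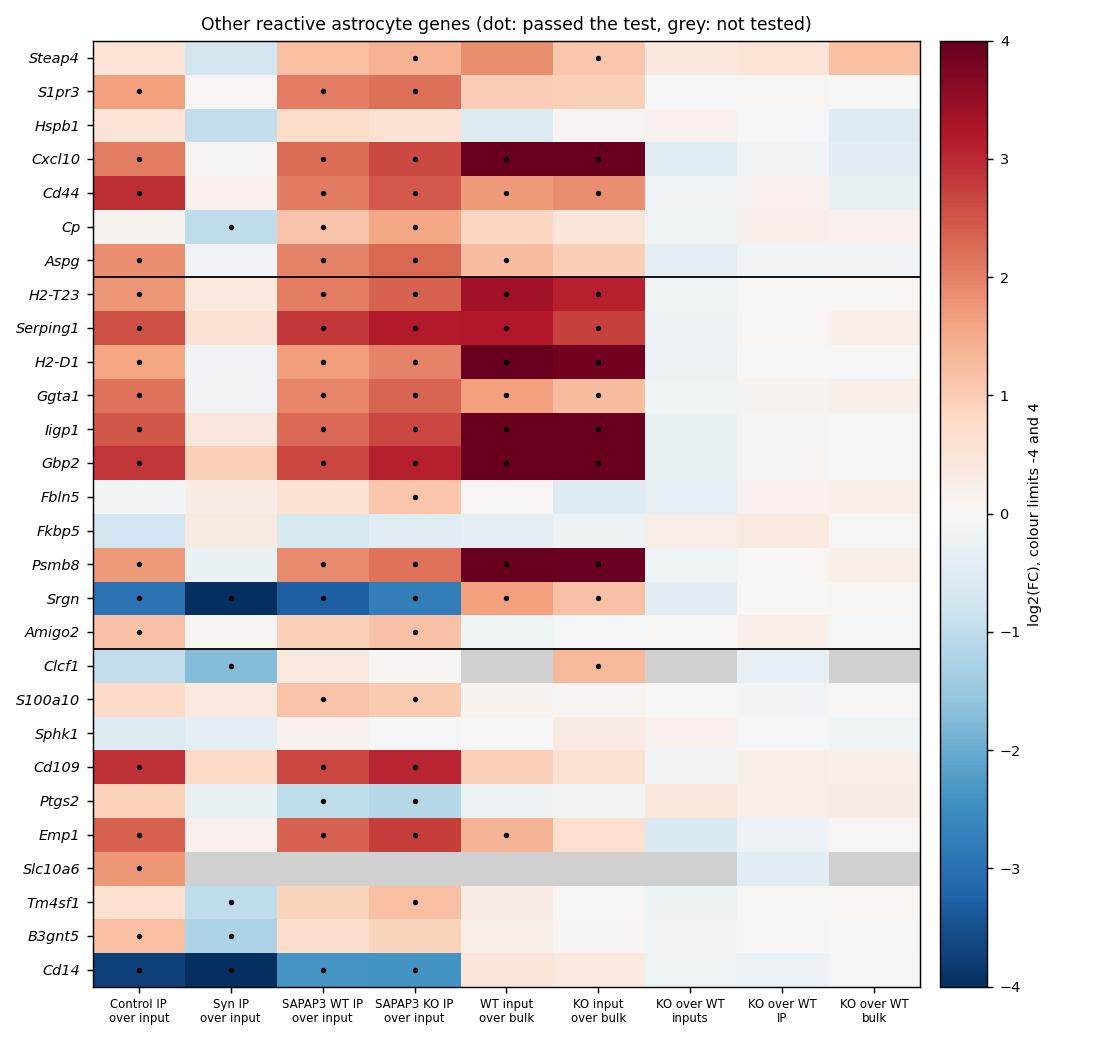
Log2 fold change (colour, limited at -4 and 4) of the other 28 reactive astrocyte genes (rows, split by lines into shared, inflammation and ischaemia genes) in 9 comparisons (columns), with a dot for genes that passed the call rule and grey for genes not tested. Dots on red mark 16, 15 and 19 genes in the Control, WT and KO IP columns and 0 in the Syn IP column, where 6 dots lie on blue, and no gene carries a dot in the 3 KO over WT columns. In Syn IP 0.42% of all genes were called higher and 15.8% lower.

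The second comparison asked what changed in SAPAP3 knockout. None of the 10 genes was called between genotypes in inputs, in IP or in bulk at an adjusted p under 0.05 alone, the rule for genotype, and the libraries of KO and WT overlapped for all 10 in each of the 3. Without overlap, higher or lower in KO, were 1.52% and 2.62% of all genes in inputs, 0.559% and 0.882% in IP and 2.59% and 0.743% in bulk. Calls were rare over the whole table, 0.00641% of 15591 genes in inputs, 0.0263% of 15198 in IP and 0% of 16020 in bulk, with 869, 399 and 792 genes at an unadjusted p under 0.05. In IP the KO over WT log2 changes ran from -0.08 ± 0.36 (Tgm1) to 0.29 ± 0.34 (C3), with Gfap at 0.26 ± 0.18 and Vim at 0.21 ± 0.23. The corresponding values in inputs ran from -0.41 ± 0.43 (Tgm1) to 0.20 ± 0.53 (Lcn2), with Gfap at -0.03 ± 0.18. A change of 1 on the log2 scale would have lain within 2 SE, and was not detectable, for Lcn2 (SE 0.53 in inputs, 0.56 in IP) and for Ptx3 in inputs (0.53). A call after adjustment over all genes can need more than 2 SE. Ptx3, for example, was not called at 2.18 ± 0.73 in WT input over bulk. A change of 1 could therefore also have been missed for genes with a smaller SE. Examples are Ptx3 in IP (SE 0.49) and Tgm1 (0.43), C3 (0.41) and Timp1 (0.39) in inputs. Further examples are Tgm1 (0.36) and C3 (0.34) in IP and C3 in bulk (0.39). The SE at which a change of 1 would have been called was not determined, so the other genes are not exempt. The difference in IP over input between KO and WT was not called for any of the 10 (largest for Ptx3, 0.53 ± 0.87), nor for any of the 16059 genes tested, of which 203 had an unadjusted p under 0.05.

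In bulk tissue 6 of the 10 genes passed the filter on low counts, and their KO over WT log2 changes ran from -0.22 ± 0.25 (Gfap) to 0.09 ± 0.39 (C3). Gfap was at 125, 99.7, 80.3 and 95.0 CPM in Bulk WT and at 60.0, 73.0, 75.6 and 142 CPM in Bulk KO. The highest and the 3 lowest of these 8 libraries were all KO. Lcn2, Timp1, Ptx3 and Tgm1 did not pass the filter. Lcn2 nevertheless stood apart in single libraries, with counts of 3, 4, 8 and 1 in Bulk WT and of 148, 6, 91 and 5 in Bulk KO, that is 2.24, 0.0994, 1.42 and 0.0792 CPM in KO. The first and the third Bulk KO libraries were high and the other KO libraries were in the range of WT. Of the other 9 genes Osmr alone lay above the Bulk WT range in either of these libraries, at 3.06 CPM in the first against at most 3.00 CPM in WT. The summed level of 5 neutrophil markers was 0.151 and 0.297 CPM in them against 0.315 and 0.222 CPM in the other KO libraries. In Bulk WT this sum was lower, at 0.0931 to 0.139 CPM. All these sums rest on few reads, since 3 counts were 0.0399 to 0.0549 CPM in the bulk libraries. The part of neutrophils was not tested. The first Bulk KO library is also the one that shares its animal name with a Bulk WT library.

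Inputs and bulk libraries both held RNA of all striatal cells. The inputs of the SAPAP3 cohort had more of these RNAs than bulk tissue of the same genotype, by 8 of 10 genes called in WT (5.12% of all genes were called higher) and 9 of 10 in KO (5.04%), with 8 and 9 genes free of overlap (15.2% and 15.9% of all genes). Here too the values are descriptions. The groups differed in strain label, and Rpl22, whose reads include the viral transgene, was at 112 to 238 CPM in the inputs against 66.7 to 75.1 CPM in bulk. Cohort, strain and virus cannot be told apart here, nor can more cells of a type be told from more RNA per cell in tissue.

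Tgm1 and C3 differed most between input and bulk. Tgm1 was at 4.78, 8.47, 1.60 and 3.54 CPM in WT input against 0.0798, 0.0466, 0.0183 and 0.0617 CPM in Bulk WT, a log2 change of 6.29 ± 0.62, and by 5.22 ± 0.36 in KO. C3 was at 0.612, 1.27, 1.33 and 0.617 CPM in Bulk WT and changed by 5.41 ± 0.50 in WT and 5.16 ± 0.36 in KO. None of the inputs of either gene lay within the range of the bulk libraries. Gfap was higher by 1.98 ± 0.22 in WT and 2.16 ± 0.21 in KO, Vim by 1.88 ± 0.22 and 1.80 ± 0.10, Serpina3n by 3.01 ± 0.33 and 2.73 ± 0.12 and Osmr by 1.91 ± 0.21 and 1.72 ± 0.11. S100a6, at 7.28 to 8.85 CPM in Bulk WT, differed least in WT (0.94 ± 0.16) and was at 1.01 ± 0.09 in KO. It was called in WT without WT input 3 (1.07) and not called in KO without KO input 1 or 4 or Bulk KO 1 or 3 (0.94 to 1.07 over the libraries left out in turn). Lcn2 differed by 4.12 ± 0.79 in WT and, the least of the 10, by 0.43 ± 0.75 in KO, where the libraries Bulk KO 1 and 3 stood at or above the KO inputs (0.996 to 1.65 CPM). Timp1 (2.49 ± 0.67) lost its call in WT on leaving out any of 6 of the 8 libraries, namely WT input 1, 2 or 4 or Bulk WT 1, 2 or 3, with values of 2.15 to 3.31.

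**Figure D4:**
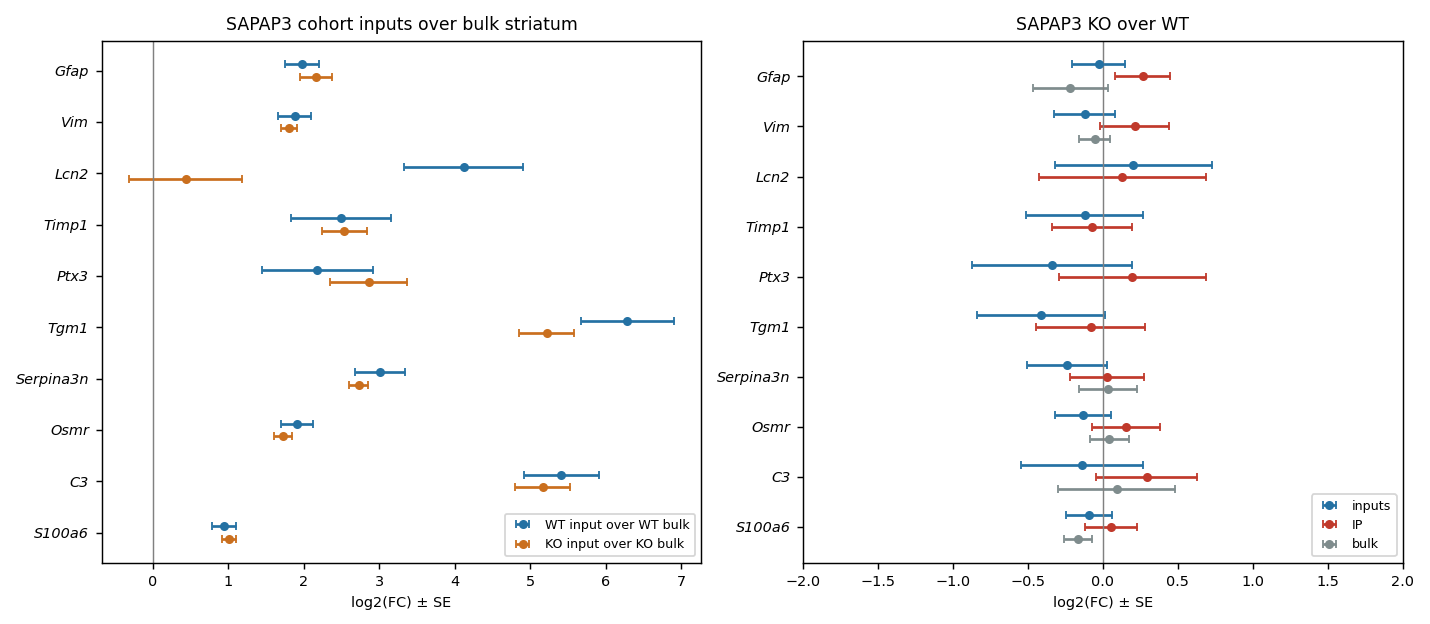
Log2 fold change with its SE (bars) of the 10 genes, left for SAPAP3 cohort inputs over bulk striatum of the same genotype and right for KO over WT in inputs, IP and bulk, where the 4 genes below the filter in bulk have no grey point. Values at the left lie above 0 for all 10 genes, from 0.43 (Lcn2 in KO) to 6.29 (Tgm1 in WT), and those at the right run from -0.41 (Tgm1 in inputs) to 0.29 (C3 in IP).

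All 16 input libraries of the 4 virus-injected groups lay above all 8 bulk libraries for 7 of the 10 genes, the exceptions being Lcn2, Timp1 and Ptx3. Of the 14147 genes that averaged 1 CPM or more, 4.45% did so. The Control and Syn inputs belong to other cohorts, with the differences in Gapdh and Xist given above, and the part of these differences was not tested. The 10 astrocyte markers moved little at the same time, with 0 of 10 called in either genotype, median log2 changes of 0.09 and 0.13 and summed levels of 6234 to 8149 CPM in the SAPAP3 inputs against 6206 to 7099 CPM in bulk. Microglial markers were called higher in 5 of 10 in each genotype, with sums of 825 to 1738 CPM in the SAPAP3 inputs and 487 to 601 CPM in bulk. Their part in the difference was not tested. Of the other 28 reactive genes 12 were higher and 0 lower in WT input (26 tested, beside 5.12% of all genes higher) and 12 higher and 0 lower in KO input (27 tested, beside 5.04%). They were led by interferon-induced genes, namely Iigp1 (6.51 ± 0.66, adjusted p = 0.00066 in WT), Cxcl10 (6.39 ± 0.86, adjusted p = 0.0016) and Gbp2 (5.46 ± 0.56, adjusted p = 0.00066), and 8 of 11 inflammation genes were called in each genotype against 1 of 8 and 1 of 9 ischaemia genes. Complement genes were higher as well, 9 of 10 in WT and 8 of 10 in KO, with Cfb at 9.35 ± 0.88 and C4b at 3.50 ± 0.36 in WT (adjusted p = 0.0006 and 0.00066). Oncostatin M itself (Osm, 2.23 ± 0.40, adjusted p = 0.0071) and Socs3 (2.63 ± 0.41, adjusted p = 0.0036) were higher in WT input, while 0 of 6 filament partners and 0 of 6 S100 genes were called there.

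In several groups many of the 10 genes were highest or lowest in the same library. The share of all genes that were so was not counted. Over all genes averaging 5 CPM or more, IP and input libraries of the same number also deviated together (mean correlation 0.453 to 0.654). The counts below are therefore descriptions, and nothing particular to the 10 genes is read from them. The fourth Control input library was the highest of its group for 10 of 10 genes, and the IP library of the same number was the highest for 9 of 10, with the second IP library lowest for 10 of 10. In the Syn cohort the third input library was lowest for 10 of 10 and the third IP library for 9 of 10. In the WT mice the third input library was lowest for 10 of 10 and the third IP library for 8 of 10, while the second was highest for 8 of 10 in both input and IP. Libraries of the KO inputs and of bulk tissue had no such order, with at most 5 of 10 genes highest or lowest in any of them. IP and input of a number come from 1 animal in the Control and SAPAP3 cohorts by their labels, so the 2 libraries of a pair are not independent here.

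The spread differed between the genes. In the WT inputs the highest over the lowest library was 7.63-fold for Lcn2, 6.76-fold for Ptx3, 5.29-fold for Tgm1, 4.53-fold for Timp1 and 4.45-fold for C3, against 2.83-fold for Serpina3n, 2.13-fold for Vim, 2.03-fold for Gfap, 2.10-fold for Osmr and 1.74-fold for S100a6. In Control IP it was 6.79-fold for Tgm1 and 1.74-fold for Gfap. Other measures moved with it in part. The third WT input library also had the lowest microglial sum (825 CPM against 1329 to 1738 CPM) and the lowest Rpl22 level (122 CPM against 147 to 238 CPM) of its group, while its astrocyte sum was the highest (7706 CPM). The fourth Control input library had the highest microglial sum (1190 CPM against 957 to 1074 CPM) and the highest Rpl22 (491 CPM against 342 to 437 CPM). The second WT IP library had Rpl22 at 1711 CPM against 716 to 784 CPM in the others, and the second KO IP library at 1181 CPM against 489 to 756 CPM, where 8 of 10 genes were highest as well. Other libraries went another way. WT IP 4 had the highest sum of the 10 genes in its group (5223 CPM) with Rpl22 at 784 CPM. Control IP 3 had the lowest Rpl22 of its group (2058 CPM) but not the lowest sum (2567 CPM). KO IP 4 had the lowest Rpl22 (489 CPM) and a sum of 4724 CPM, above that of KO IP 1 (3848 CPM, with Rpl22 at 665 CPM). Rpl22 reads include those of the viral transgene and of the endogenous gene. The part of virus load or of microglia in the spread was not tested.

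**Figure D5:**
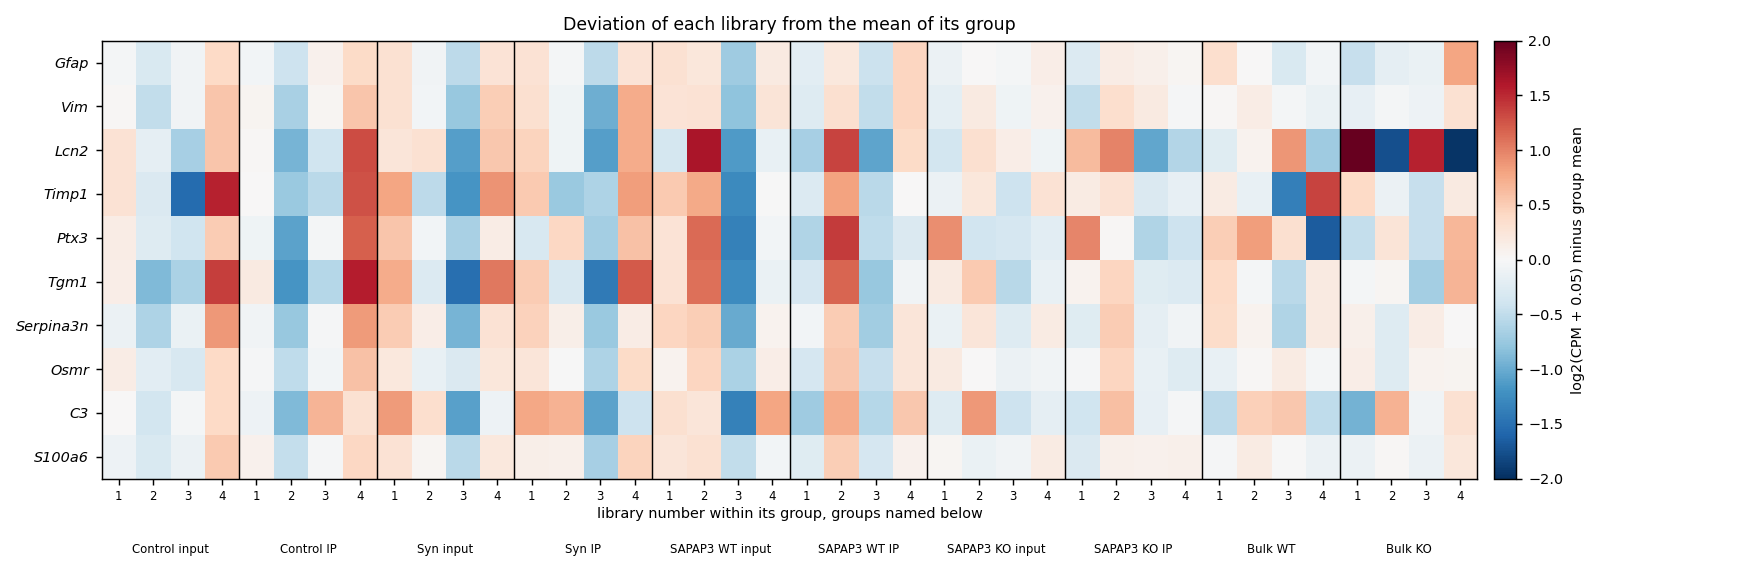
Difference of each of the 40 libraries from the mean of its group for the 10 genes, as log2(CPM + 0.05), with red above and blue below the group mean. Whole columns share a colour in the Control, Syn and WT groups, for instance the fourth Control input and the third WT input library, and do not in the bulk groups.

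Over the 10 group means, the gene most like Gfap among the 11762 genes averaging 5 CPM or more was Vim (Pearson r = 0.998 on log2(CPM + 1)), followed by Tgm1 (0.994), Osmr (0.992), Slc43a3 and Cd44 (both 0.991). Those most like Vim were Osmr and Gfap (both 0.998), Tgm1 (0.996), Cmpk2 and Slc43a3 (both 0.993). Serpina3n had other neighbours, namely Serping1 and Tnfaip2 (both 0.994), Tap2 and C1ra (both 0.993) and Ifit2 (0.990). The 10 points share libraries between IP and input of a cohort and are set mainly by the IP step and the cohort, so these values only describe likeness.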

How the data were processed

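RNA of striatal lysates (input), of HA-tagged ribosomes (IP) and of bulk striatum was sequenced in 40 libraries, 10 groups of 4. The authors deposited raw read counts per gene symbol, made, per the labels' processing notes, with STAR and HTSeq on mm10 (versions and annotation not given in the sources used here). The labels name a stranded TruSeq kit with RiboZero and the methods a Nugen Ovation kit, and strand use in the counting was not stated. All 40 columns were used. Groups came from the labels, except that the promoter of the Control cohort's virus is not named there. Totals were 23438112 to 84109800 counts, and the scarce genes had few counts per library in bulk tissue at their low levels there. Libraries of a group have separate animal names, while IP and input of the Control and SAPAP3 cohorts share animals and the fits without the block treat them as independent.

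Counts were tested with edgeR 4.0.16 (R 4.3.3) by filterByExpr, TMM and the quasi-likelihood test, fitted over the groups of each comparison, with Benjamini-Hochberg adjustment over all genes tested. Calls needed an adjusted p under 0.05 and a log2 change above 1 in size, or the adjusted p alone for KO against WT and for the interactions. SE was the log2 change divided by the root of F. CPM used library totals, and FPKM used RefSeq lengths. DESeq2 1.42.0, limma 3.58.1 (voom, the study's tool), other scalings and filters, an Xist covariate, a replicate block and leaving out each library were alternatives. Scripts were tested on simulated data. The 10 genes and all lists were chosen with earlier results of these data known. Genes named beside the 10 were, per list and comparison, up to 2 with the largest positive and up to 2 with the largest negative log2 change among those called, direct partners of the 10 (such as Osm, Il6st, Stat3, C3ar1 and Mmp9) and, for likeness, the 5 best of Gfap, Vim and Serpina3n. Dlgap3, Gapdh and Rpl22 were added to describe the libraries. Likeness used log2(CPM + 1). Copies were searched with minimap2 2.31, and figures drawn with matplotlib 3.10.9. Samples with the same number deviated together (mean correlation 0.453 in Control, 0.654 in Syn, 0.606 in WT and 0.517 in KO, lowest pair 0.258, own number best in 4 of 4 in each). Pairs come from the animal in the labels for the Control and SAPAP3 cohorts and from the number in the title for the Syn cohort, whose labels give IP and input different animals.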

Additional observations from a re-analysis of the deposited data

Results flagged for a closer look

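Within groups of 4, the gap of the highest or lowest library to its nearest neighbour was tested in 100 gene and group combinations, and 6 libraries stood apart by Dixon's 95% limit. Chance gives about 1 in 20 such groups, so this number is near that expected without any outlier. Vim was low in WT input 3 (33.4 CPM), Lcn2 was high in WT input 2 (2.87 CPM), and Ptx3 was high in WT IP 2 (11.8 CPM). In KO, Ptx3 was high in input 1 (0.929 CPM), C3 was high in input 2 (63.2 CPM) and S100a6 was low in IP 1 (64.3 CPM). KO input 1 and KO IP 1 also held the most Xist, 7418 and 6281 counts against at most 104 and 105 in the other KO inputs and IP. The part of sex was not tested.

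C3 had an IP over input ratio below 1 in all 4 pairs of the Syn cohort (median 0.548) and above 1 in all 4 pairs of the Control, WT and KO cohorts. The difference of the Syn from the WT and KO cohorts was not tested, and that from the Control cohort had a log2 value of 2.28 ± 0.60. The IP over input of 22 of the other 28 reactive genes was higher and that of 2 lower in the Control than in the Syn cohort by the interaction term, in which 34.3% of all genes were called higher. That list was also chosen with earlier results known, so the count is a description.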

How the results depend on the processing

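No called value changed sign. Of 1562 values of the 10 genes under alternatives, 1543 stayed within the spread between libraries (1 SD) and 19 moved further. A CPM filter (above 1 in at least 4 libraries) lowered the Syn IP calls from 2635 to 1691, fewer genes being tested. DESeq2 called 8 genes between KO and WT inputs (edgeR 1), 8 between KO and WT IP (edgeR 4), 17 in bulk (edgeR 0) and 1 for the difference in IP over input between KO and WT (edgeR 0), and the cause was not tested. Leaving out a library gave 0 to 1 calls in inputs, 0 to 3 in IP and 0 to 1 in bulk. With the replicate block, 4173, 2645, 3627 and 3727 genes were called in Control, Syn, WT and KO IP, 12255 in the Control against Syn interaction and 0 in the KO against WT interaction, and among the 10 genes it added calls for Timp1 and Tgm1 in Syn IP and for Lcn2 and Tgm1 in the first interaction. There Timp1 was not called by DESeq2, limma or library totals alone, nor Ptx3 by limma, and in Syn IP DESeq2 also called Timp1. Leaving out the bulk libraries of the shared animal name, an alternative chosen after seeing the data, kept 0 bulk calls and put Gfap at 0.06 in place of -0.22. The Xist covariate could not be fitted in bulk, where all KO libraries had 0 to 2 Xist counts and Bulk WT 3 had 10787. Low levels limit Lcn2, Timp1, Ptx3 and Tgm1 in bulk tissue. Library totals there (medians 64641433.5 in WT and 63586720 in KO) were above those of the SAPAP3 inputs (28723682 and 29624963).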
